A study of Mus musculus with 14 samples.

Results

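The chaperones and protein folding factors of transferred OT-I T cells were taken as every gene whose symbol begins with Hsp, Dnaj, Pfdn, Pdia or Fkbp followed by a digit, or is Tcp1, a CCT subunit, a cyclophilin of the Ppi series, Calr or Canx. The rule found 90 gene rows among the 10106 of the normalised expression table, under 89 symbols, since Hspa14 stands on more than 1 row. It used the names and no measured value. The members comprised 10 rows of cytosolic HSP70 and HSP110 proteins with 1 of their regulators, 6 of cytosolic HSP90 and its immunophilins, 20 of the endoplasmic reticulum (ER), and 9 of mitochondria. There were 8 subunits of the chaperonin CCT, 4 of prefoldin, 9 J proteins of classes A and B, 14 of class C, 7 other prolyl isomerases and 3 other Hsp-named genes. J proteins of the ER and of mitochondria were counted with those compartments, and not among the 9 and the 14.

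OT-I cells are CD8+ T cells with a transgenic receptor for SIINFEKL, the ovalbumin peptide presented by H-2Kb. They were purified from OTI spleens, labelled with CFSE and injected on day 0 into C57BL6j recipients, which carry CD45.2 and keep their own T cells. On day 1 the recipients received antigen intravenously, and on day 4 the CD3e+ CD8+ CD45.1+ donor cells were sorted from the spleen. Thus all groups share the transfer, the sort and the transgenic receptor. The age given is 8 to 12 weeks. The antigen groups were ERY1-OVA (erythrocyte-targeted ovalbumin, 3 libraries), OVA (untargeted ovalbumin, 3), TER119-SIINFEKL (erythrocyte-targeted peptide, 3) and SIINFEKL (untargeted peptide, 2), each at 223 pmol, the molar amount of 10 µg of ovalbumin. The Naive group (3) received saline. ERY1 is a peptide and TER119 an antibody that bind mouse erythrocytes, and antigen carried on erythrocytes is studied as a way to render T cells tolerant. The labels do not say that the libraries of a group came from separate mice, so the p-values below measure the spread between libraries, which may be technical.

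Chaperones bind proteins that are not yet folded and keep them from aggregating. In the cytosol HSP70 takes up new chains, J proteins deliver clients to it and drive its ATPase, HSP90 matures kinases and steroid receptors with the help of immunophilins. Prefoldin hands actin and tubulin to the ring-shaped chaperonin CCT. HSP60 and its lid HSP10 fold proteins inside mitochondria. In the ER the HSP70 protein BiP, the lectins calnexin and calreticulin, and protein disulfide isomerases fold membrane and secreted proteins, among them MHC molecules and T cell receptors. T cells that meet antigen grow and divide, and their need for folding capacity is known to grow with protein synthesis.

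The sorted cells held the RNA of their labelled type. Cd8a lay between 247 and 399 RPKM (reads scaled to gene length and library size) and Cd3e between 301 and 431 over the 14 libraries, against 0.182 to 1.31 for Cd4. CD8 T cell marker RNA nevertheless moved with the groups. Of the 5 markers tested, 3 were called lower in ERY1-OVA, 4 in OVA and 3 in TER119-SIINFEKL than in Naive cells, and 0 in SIINFEKL, where limma gave 2 a lower level at an unadjusted p under 0.05. Their summed RPKM was 2029.6 to 2085 in ERY1-OVA, 1836 to 2034 in OVA, 1633 to 2093 in TER119-SIINFEKL, 2269.98 and 2392 in SIINFEKL and 2529 to 2832 in Naive libraries. Cd8b1 had the lowest level in TER119-SIINFEKL cells, at 570.1, 482 and 536 RPKM, against 1038, 960.1 and 1048 in Naive cells. Of the B cell markers Cd79b was not called against Naive, while Cd22 was higher in all 4 antigen groups, at 3.57 to 12.4 RPKM against 0.317 to 0.435 in Naive libraries. The part of either in the results below was not tested. B cell, plasma cell, macrophage, NK cell and erythroid markers summed to at most 39.2 RPKM per list and library. MHC class II and dendritic markers summed to 71.5 RPKM in OVA replicate 1 and 36.6 in TER119-SIINFEKL replicate 1, against 7.74 to 28.9 in the other libraries. A fit without these 2 libraries ended the calls against Naive of Hspa5, Cct6a, Dnajc19, Dnajb9 and Dnajc1 in OVA. In TER119-SIINFEKL it ended those of Hspa5, Hspa13, Dnajc5 and Dnajc16, and it newly called Pfdn5 lower in both groups. The libraries may differ in more than these markers, whose own part in the results was not tested. The SIINFEKL libraries differed most from each other, with a root mean square SD of 0.416 on the log2 scale over all genes, against 0.226 to 0.255 in the other groups. In bulk RNA of this kind a change in the mixture of cells and a change of RNA per cell cannot be told apart.

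Chaperone RNA was most often highest in OVA cells and most often lowest in SIINFEKL cells. The highest of the 5 group means was that of OVA for 43 of the 90 rows, Naive for 20, SIINFEKL for 12, TER119-SIINFEKL for 11 and ERY1-OVA for 4. The lowest was that of SIINFEKL for 50 rows. Summed over all members, RPKM came to 9976 to 10890.3 in ERY1-OVA libraries, 11651 to 14146 in OVA libraries, 10330.7 to 12923 in TER119-SIINFEKL libraries, 6515 and 7305 in SIINFEKL libraries, and 9180.5 to 9692 in Naive libraries. Hspa8, Hsp90ab1 and Ppia made up 36.7% to 46.2% of these sums. Both SIINFEKL libraries lay below every other library, and every OVA library lay above every ERY1-OVA and Naive library.

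Tests of single genes used limma on the log2 RPKM values of all 9793 genes with a mean of at least 1 RPKM, and a gene was called at an adjusted p (Benjamini-Hochberg over all genes tested) under 0.05. Of the members, 89 passed this filter. Each gene had a single spread shared by all groups, although the SIINFEKL libraries differed more from each other (SD 0.416, against 0.226 to 0.255). The p-values of comparisons with SIINFEKL may therefore be too small. In OVA against Naive cells, 32 of the 89 were called higher and 9 lower, while of all genes 24.4% were called higher and 23.1% lower (47.6% together). In TER119-SIINFEKL against Naive cells the counts were 29 higher and 9 lower, with 24.6% and 23.0% of all genes (47.6% together). In ERY1-OVA against Naive cells they were 18 higher and 12 lower, with 20.9% and 19.0% of all genes (39.9% together), so the share of members higher was close to the background. SIINFEKL cells gave the opposite split, with 1 member higher and 21 lower than in Naive cells, where 7.58% of all genes were higher and 8.34% lower (15.9% together). The members' median log2 fold change was 0.26 for OVA, 0.22 for TER119-SIINFEKL, 0.09 for ERY1-OVA and -0.26 for SIINFEKL, and the median of all genes was between -0.04 and 0.00 in each. Quantile normalisation, which forces every library to the same distribution, lowered these members' medians to 0.12 in OVA, 0.10 in TER119-SIINFEKL and -0.02 in ERY1-OVA, and correction for gene length and GC content to 0.14, 0.12 and -0.01. In SIINFEKL they were -0.24 and -0.26. Where no alternative is named, a call refers to the fit of all 14 libraries as deposited. These comparisons share the 3 Naive libraries. The counts by role and by list below are to be read beside the shares of all genes given here.

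Single libraries weighed on some of these counts. Without OVA replicate 1, members lower in OVA numbered 5. Members higher in ERY1-OVA numbered 9 without ERY1-OVA replicate 2 and 9 without Naive replicate 3, and members lower numbered 7 without Naive replicate 2. Members lower in SIINFEKL numbered 4 without SIINFEKL replicate 1 and 13 without Naive replicate 1. Members higher there numbered 0 without SIINFEKL replicate 1, Naive replicate 1 or Naive replicate 3, and 2 without SIINFEKL replicate 2. Quantile normalisation left 26 higher and 10 lower in OVA and 23 and 11 in TER119-SIINFEKL, but 12 higher and 19 lower in ERY1-OVA. Of all genes called after it, 42.5% were higher in OVA (51.3% without it), 45.2% in TER119-SIINFEKL (51.7%) and 43.0% in ERY1-OVA (52.4%). Of the members called in ERY1-OVA 38.7% were then higher, so their split was near that of all genes. Under every alternative run, 13 of the 30 member calls in ERY1-OVA, 29 of 41 in OVA, 24 of 38 in TER119-SIINFEKL and 3 of 22 in SIINFEKL were kept, the last being those of Hsp90ab1, Fkbp4 and Hspbp1.

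**Figure D1:**
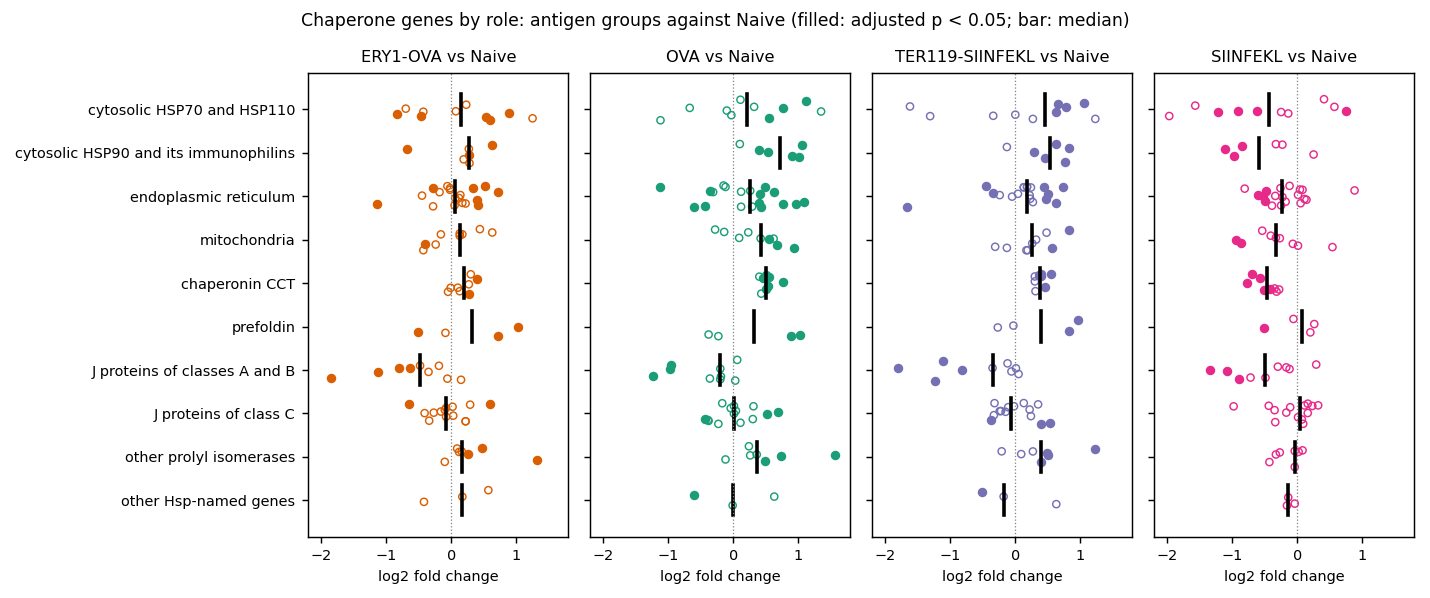
Log2 fold change of each of the 89 tested members (horizontal axis) by role (rows), with 1 panel for each antigen group against Naive; filled points had an adjusted p under 0.05 and the black bar is the median of the role. CCT and HSP90 members lie mostly to the right of 0 in OVA and TER119-SIINFEKL cells and mostly to the left in SIINFEKL cells, with medians of 0.50 and 0.72, 0.38 and 0.54, and -0.46 and -0.59; quantile normalisation lowered the CCT medians to 0.25 in OVA and 0.22 in TER119-SIINFEKL.

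Of the 6 members of cytosolic HSP90 and its immunophilins, 2 were higher and 1 lower in ERY1-OVA, 5 were higher in OVA, 5 were higher in TER119-SIINFEKL, and 3 were lower in SIINFEKL, all against Naive. Hsp90ab1 (chr17:45567775-45573271, minus strand, GRCm38), the constitutive cytosolic HSP90, was at 1577, 1520.1 and 1617 RPKM in ERY1-OVA cells and 1999, 1956 and 2008 in OVA cells. Hsp90ab1 stood at 1891, 1786 and 1987 RPKM in TER119-SIINFEKL cells, 706 and 830.0 in SIINFEKL cells and 1415, 1374 and 1348 in Naive cells. No antigen group overlapped Naive, and SIINFEKL was the only one below it. The log2 fold change was 0.53 ± 0.12 (adjusted p = 0.0025) in OVA, where ± is the standard error, 0.45 ± 0.12 (adjusted p = 0.0064) in TER119-SIINFEKL and -0.85 ± 0.13 (adjusted p = 0.0011) in SIINFEKL, while the 0.19 in ERY1-OVA was not called (adjusted p = 0.22).

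Hsp90aa1 (chr12:110690605-110702728, minus strand), the inducible cytosolic HSP90, was at 234, 183 and 195 RPKM in ERY1-OVA cells and 334, 307 and 374 in OVA cells. Hsp90aa1 stood at 257, 245 and 273 RPKM in TER119-SIINFEKL cells, 67.9 and 107 in SIINFEKL cells and 152, 213 and 146 in Naive cells. The lowest OVA library was above the highest Naive library, and both SIINFEKL libraries were below all Naive libraries. It was higher in OVA by 1.01 ± 0.18 (adjusted p = 0.00052) and in TER119-SIINFEKL by 0.62 ± 0.18 (adjusted p = 0.011), and its log2 fold change in SIINFEKL was -0.98 ± 0.20 (adjusted p = 0.0059). The TER119-SIINFEKL call was lost without Naive replicate 3 (0.52) and after quantile normalisation (0.45), and the SIINFEKL call without SIINFEKL replicate 1 (-0.66).

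Ppid, the cyclophilin of HSP90 complexes, was at 29.1, 23.3 and 29.1 RPKM in ERY1-OVA cells and 41.1, 37.9 and 47.5 in OVA cells. Ppid stood at 37.1, 38.7 and 42.04 RPKM in TER119-SIINFEKL cells, 16.7 and 18.8 in SIINFEKL cells and 19.7, 25.7 and 21.99 in Naive cells. It was higher in OVA by 0.91 ± 0.13 (adjusted p = 9.6e-05) and in TER119-SIINFEKL by 0.82 ± 0.13 (adjusted p = 0.00021), with no overlap with Naive, while ERY1-OVA and SIINFEKL were not called against Naive (ERY1-OVA was, at 0.38, without ERY1-OVA replicate 2). Fkbp4, the immunophilin FKBP52 that binds HSP90 in steroid receptor complexes, moved otherwise. It was at 55.7, 48.7 and 49.7 RPKM in ERY1-OVA cells and 89.6, 89.7 and 85.8 in OVA cells. Fkbp4 stood at 77.04, 65.5 and 83.8 RPKM in TER119-SIINFEKL cells, 26.5 and 54.96 in SIINFEKL cells and 85.8, 85.3 and 76.3 in Naive cells. ERY1-OVA and SIINFEKL lay below all Naive libraries, and the OVA libraries lay at or just above the highest Naive library, without a call (0.10). Its log2 fold change was -0.68 ± 0.19 (adjusted p = 0.013) in ERY1-OVA and -1.11 ± 0.22 (adjusted p = 0.005) in SIINFEKL, the second -0.58 without SIINFEKL replicate 1.

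Fkbp5, the immunophilin FKBP51 whose gene glucocorticoids induce, was at 33.9, 23.97 and 20.9 RPKM in ERY1-OVA cells and 28.96, 37.03 and 39.4 in OVA cells. Fkbp5 stood at 20.7, 35.1 and 32.1 RPKM in TER119-SIINFEKL cells, 14.5 and 14.1 in SIINFEKL cells and 13.6, 21.8 and 15.8 in Naive cells. All OVA libraries exceeded all Naive libraries, and the log2 fold change in OVA was 1.06 ± 0.23 (adjusted p = 0.0021). The calls in ERY1-OVA, 0.62 ± 0.23 (adjusted p = 0.045), and in TER119-SIINFEKL, 0.77 ± 0.23 (adjusted p = 0.013), came with libraries that overlapped Naive. The first was lost without ERY1-OVA replicate 1 or 2, OVA replicate 2 or 3, TER119-SIINFEKL replicate 3, or Naive replicate 1 or 3 (0.42 to 0.67) and after quantile normalisation (0.57), and the second without TER119-SIINFEKL replicate 2 or 3 or Naive replicate 1 (0.62 to 0.69). Fkbp8, the outer mitochondrial membrane immunophilin, stayed between 87.4 and 134 RPKM in all libraries. It was called higher in ERY1-OVA (0.27), OVA (0.39) and TER119-SIINFEKL (0.29), and quantile normalisation ended all 3 calls (0.13, 0.15 and 0.13), while length and GC correction gave 0.64, 0.63 and 0.65. The ERY1-OVA call was also lost without any library other than ERY1-OVA replicate 1, OVA replicate 1, TER119-SIINFEKL replicate 1 and Naive replicate 3 (0.19 to 0.27), and the TER119-SIINFEKL call without TER119-SIINFEKL replicate 2 or 3 or Naive replicate 1 or 2 (0.21 to 0.30).

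**Figure D2:**
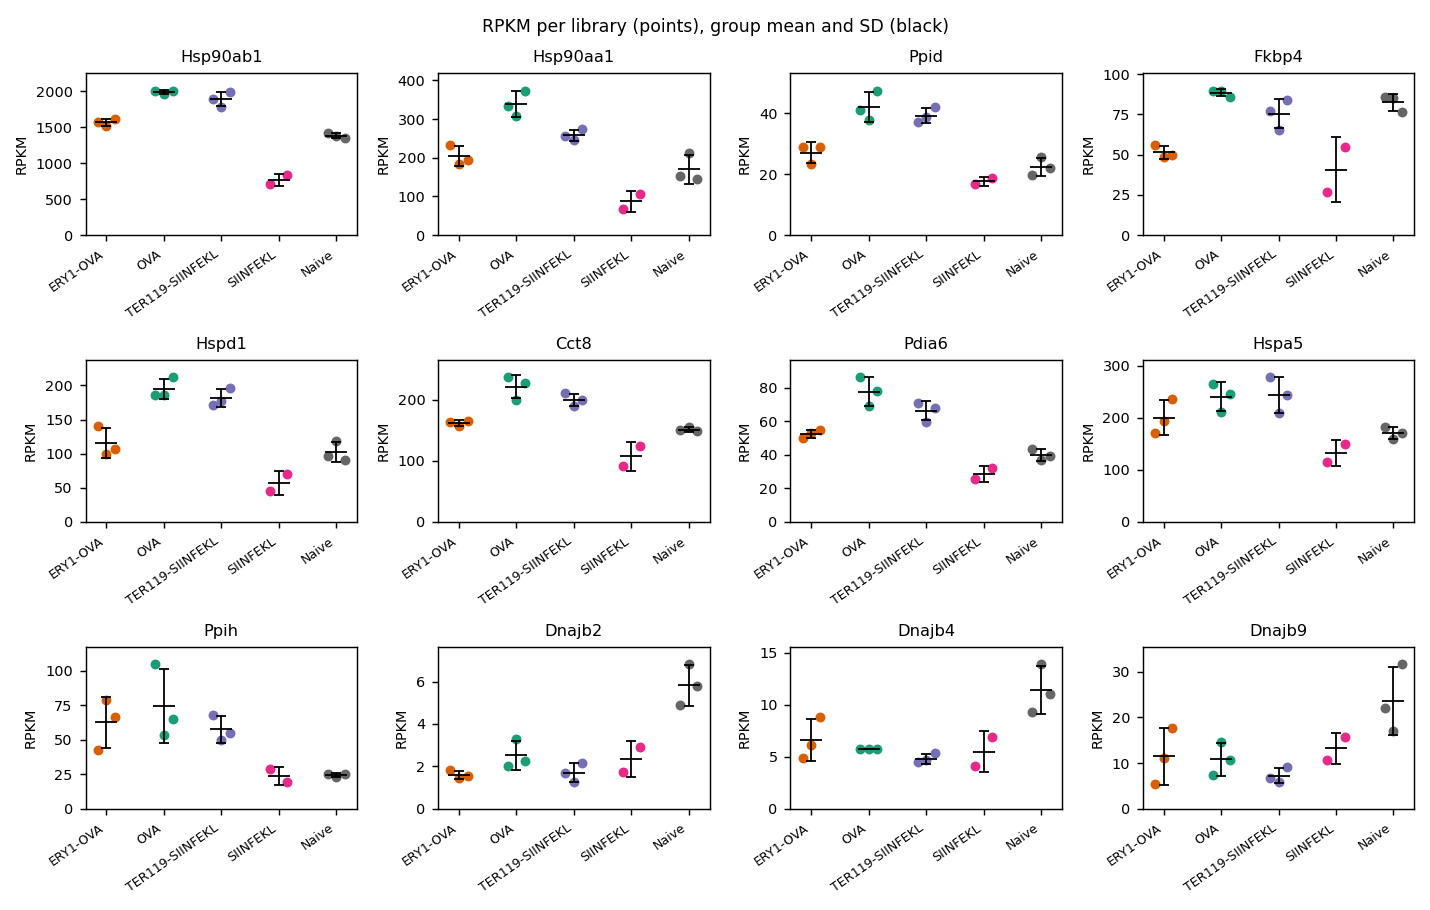
RPKM (vertical axes, linear, from 0) of 12 chaperone genes in each library; coloured points are libraries, ordered by group, and the black bar and whiskers are the group mean and SD. For Hsp90ab1 the 3 OVA libraries sit between 1956 and 2008 and the 2 SIINFEKL libraries at 706 and 830, while Dnajb2 and Dnajb4 have their highest points in Naive cells.

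All 8 CCT subunits, which form the double ring that folds actin and tubulin, had positive log2 fold changes in OVA (0.40 to 0.76) and TER119-SIINFEKL (0.30 to 0.55) and negative ones in SIINFEKL (-0.77 to -0.28). Against Naive, 2 were called higher in ERY1-OVA, 6 in OVA and 5 in TER119-SIINFEKL, and 5 were called lower in SIINFEKL. Tcp1 (chr17:12915701-12925067, plus strand), which encodes subunit alpha, was at 209, 226 and 212 RPKM in ERY1-OVA cells and 326, 244 and 265 in OVA cells. Tcp1 stood at 261, 222 and 235 RPKM in TER119-SIINFEKL cells, 117 and 127 in SIINFEKL cells and 176, 161 and 154 in Naive cells. Its SIINFEKL libraries lay below, and all other antigen libraries above, the Naive libraries.

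The log2 fold change of Tcp1 was 0.76 ± 0.12 (adjusted p = 0.00019) in OVA (0.50 after quantile normalisation), 0.55 ± 0.12 (adjusted p = 0.0019) in TER119-SIINFEKL and 0.40 ± 0.12 (adjusted p = 0.016) in ERY1-OVA. The ERY1-OVA call was lost without ERY1-OVA replicate 2 (0.37) or Naive replicate 3 (0.36) and after quantile normalisation (0.21), and was 0.24 after correction for gene length and GC content. In SIINFEKL it was -0.42 ± 0.13 (adjusted p = 0.046), a call that was lost without any library other than OVA replicate 1, OVA replicate 2 and TER119-SIINFEKL replicate 1 (-0.48 to -0.36).

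Cct8, subunit theta, was at 163, 157 and 166 RPKM in ERY1-OVA cells and 237, 200.4 and 228 in OVA cells. Cct8 stood at 210.4, 191 and 199.7 RPKM in TER119-SIINFEKL cells, 91.1 and 124 in SIINFEKL cells and 149.9, 155 and 148 in Naive cells. OVA and TER119-SIINFEKL libraries were all above Naive and SIINFEKL libraries below. Subunit theta was higher in OVA by 0.55 ± 0.12 (adjusted p = 0.0017) (0.30 after quantile normalisation) and in TER119-SIINFEKL by 0.40 ± 0.12 (adjusted p = 0.011), the second call being lost after quantile normalisation (0.22) and after length and GC correction (0.20). In SIINFEKL its log2 fold change was -0.51 ± 0.13 (adjusted p = 0.019), lost without SIINFEKL replicate 1 (-0.28) or Naive replicate 2 (-0.49). Cct5, subunit epsilon, was higher in OVA by 0.50 ± 0.12 (adjusted p = 0.0037) and in TER119-SIINFEKL by 0.46 ± 0.12 (adjusted p = 0.0061), with 0.24 and 0.30 after quantile normalisation. Cct2, subunit beta, was higher in OVA by 0.46 ± 0.10 (adjusted p = 0.0021) and in TER119-SIINFEKL by 0.40 ± 0.10 (adjusted p = 0.005), and quantile normalisation ended both calls (0.19 and 0.24), as did length and GC correction in TER119-SIINFEKL (0.21), and OVA then had 0.28. Its call in ERY1-OVA, 0.27 ± 0.10 (adjusted p = 0.045), was lost without any library other than ERY1-OVA replicate 3, OVA replicate 1, TER119-SIINFEKL replicate 1 and the SIINFEKL libraries (0.22 to 0.28), and after quantile normalisation (0.09) or length and GC correction (0.13). Cct3, subunit gamma, was called lower in SIINFEKL, at -0.69 ± 0.19 (adjusted p = 0.028), and lost that call without SIINFEKL replicate 1 (-0.45) or Naive replicate 1 (-0.56). Its 0.43 ± 0.17 (adjusted p = 0.056) in OVA was called when SIINFEKL, either of its libraries, or TER119-SIINFEKL replicate 1 was left out (0.43), and without OVA replicate 2 (0.52) or Naive replicate 1 (0.56).

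Of the 4 subunits of prefoldin, which passes clients to CCT, 2 were higher and 1 lower in ERY1-OVA, 2 higher in OVA, 2 higher in TER119-SIINFEKL and 1 lower in SIINFEKL. Pfdn4 was at 20.9, 29.6 and 27.6 RPKM in ERY1-OVA cells and 41.4, 23.6 and 24.6 in OVA cells. Pfdn4 stood at 29.5, 24.5 and 28.8 RPKM in TER119-SIINFEKL cells, 20.4 and 15.7 in SIINFEKL cells and 16.6, 14.4 and 15.9 in Naive cells. It was higher in ERY1-OVA by 0.72 ± 0.20 (adjusted p = 0.011), in OVA by 0.88 ± 0.20 (adjusted p = 0.0028) and in TER119-SIINFEKL by 0.82 ± 0.20 (adjusted p = 0.0044), and its ERY1-OVA call was lost without ERY1-OVA replicate 2 (0.62) and was 0.45 after length and GC correction. Pfdn1 was higher in the same 3 groups, by 1.03 ± 0.20 (adjusted p = 0.0015) in ERY1-OVA, 1.03 ± 0.20 (adjusted p = 0.0011) in OVA and 0.97 ± 0.20 (adjusted p = 0.0017) in TER119-SIINFEKL. Pfdn2 was at 11.6, 14.3 and 12.6 RPKM in ERY1-OVA cells and 17.4, 15.1 and 14.3 in OVA cells. Pfdn2 stood at 19.8, 17.5 and 16.6 RPKM in TER119-SIINFEKL cells, 10.8 and 14.9 in SIINFEKL cells and 17.5, 18.3 and 19.04 in Naive cells. This subunit had a log2 fold change of -0.51 ± 0.13 (adjusted p = 0.0083) in ERY1-OVA and of -0.52 ± 0.15 (adjusted p = 0.031) in SIINFEKL. The second call was lost without SIINFEKL replicate 1 (-0.29) or any Naive library (-0.55 to -0.49). Pfdn5 ranged from 206 to 408 RPKM and was not called, with -0.38 ± 0.24 (adjusted p = 0.22) in OVA. It was called lower there after quantile normalisation (-0.57, adjusted p = 0.017), after length and GC correction (-0.54, adjusted p = 0.013) and without OVA replicate 1 and TER119-SIINFEKL replicate 1 (-0.57, adjusted p = 0.024), the last also in TER119-SIINFEKL (-0.55). Pfdn2 was called lower in OVA after length and GC correction (-0.47).

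Of the 9 mitochondrial members, 1 was lower in ERY1-OVA, 3 were higher in OVA, 2 higher in TER119-SIINFEKL and 2 lower in SIINFEKL. Hspd1 (chr1:55077835-55088243, minus strand), the HSP60 of the mitochondrial matrix, was at 140.4, 99.5 and 107 RPKM in ERY1-OVA cells and 186, 185 and 212 in OVA cells. Hspd1 stood at 171, 177 and 196 RPKM in TER119-SIINFEKL cells, 44.8 and 69.8 in SIINFEKL cells and 96.99, 119 and 91.1 in Naive cells. OVA and TER119-SIINFEKL libraries lay above all Naive libraries, SIINFEKL libraries below, and ERY1-OVA overlapped Naive. The log2 fold change was 0.93 ± 0.17 (adjusted p = 0.00065) in OVA and 0.83 ± 0.17 (adjusted p = 0.0013) in TER119-SIINFEKL, against 0.17 ± 0.17 (adjusted p = 0.45) in ERY1-OVA. In SIINFEKL it was -0.86 ± 0.19 (adjusted p = 0.0092), and -0.54 and no longer called without SIINFEKL replicate 1.

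Hspe1 (chr1:55088132-55091307, plus strand), the HSP10 lid of HSP60, starts next to Hspd1 on the opposite strand. It was at 180.3, 275 and 248 RPKM in ERY1-OVA cells and 413, 221 and 247 in OVA cells. Hspe1 stood at 335, 190.1 and 255 RPKM in TER119-SIINFEKL cells, 143 and 147 in SIINFEKL cells and 264, 178 and 200.1 in Naive cells. OVA replicate 1 stood far above the other 2 OVA libraries, and none of the 4 comparisons with Naive was called (0.13 in ERY1-OVA, 0.42 in OVA, 0.26 in TER119-SIINFEKL and -0.54 in SIINFEKL), though length and GC correction gave a call in SIINFEKL (-0.51). The RefSeq promoter windows of both genes, 250 bases before the start and 50 after, hold the same tandem heat shock element, the site that heat shock factors bind. The letters searched were GAA, TTC and GAA, each pair with any 2 bases between, on both strands. They occur in the windows of 179 of 27025 genes (0.662%) and of 4 of the 73 member symbols with a window (Dnajb6, Hspd1, Hspe1 and Hsph1). The element is shown because the same bases lie in the windows of both genes, only 1 of which was called against Naive. Whether the changes of the 2 genes differ was not tested. Capitals mark the matched bases of 2 overlapping matches, 72 bases before the start of Hspe1 and 127 before that of Hspd1, and an exon of an Hspd1 transcript is annotated there (chr1:55088054-55088081, GRCm38.p6, plus strand).
Hspe1: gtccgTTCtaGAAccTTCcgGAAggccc

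Hspa9, mortalin, the matrix HSP70 that pulls proteins through the import pore, was at 67.9, 54.6 and 60.6 RPKM in ERY1-OVA cells and 90.8, 93.6 and 105 in OVA cells. Hspa9 stood at 87.1, 96.3 and 96.1 RPKM in TER119-SIINFEKL cells, 30.8 and 59.01 in SIINFEKL cells and 77.9, 86.5 and 81.3 in Naive cells. All OVA and TER119-SIINFEKL libraries were above all Naive libraries, yet the differences of 0.23 and 0.19 were not called. All ERY1-OVA libraries were below all Naive libraries, at -0.43 ± 0.18 (adjusted p = 0.07), which was called after quantile normalisation (-0.58, adjusted p = 0.024), after length and GC correction (-0.52, adjusted p = 0.029) and when SIINFEKL or either of its libraries was left out of the fit (-0.43, adjusted p = 0.0052). In SIINFEKL the log2 fold change was -0.94 ± 0.20 (adjusted p = 0.0076), and -0.47 without a call when SIINFEKL replicate 1 was left out. Ppif, cyclophilin D of the permeability transition pore, was higher in OVA by 0.55 ± 0.10 (adjusted p = 0.00054) and in TER119-SIINFEKL by 0.56 ± 0.10 (adjusted p = 0.00045). It averaged 23.96 ± 0.578 RPKM in ERY1-OVA, 32.1 ± 0.649 in OVA, 32.2 ± 1.56 in TER119-SIINFEKL, 18.3 ± 2.99 in SIINFEKL and 21.9 ± 0.942 in Naive cells (SD, n = 3, 3, 3, 2 and 3).

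Among the 19 tested ER members, 5 were higher and 2 lower in ERY1-OVA, 8 higher and 4 lower in OVA, 5 higher and 3 lower in TER119-SIINFEKL, and 4 lower in SIINFEKL. In OVA the members that rose were Hspa5, Hsp90b1, Calr, Canx, Pdia3, Pdia6, Fkbp2 and Dnajb11, and those that fell were the J proteins Dnajb9, Dnajc1, Dnajc14 and Dnajc16. Hspa5 (chr2:34771970-34777547, plus strand), which encodes BiP, was at 171, 194 and 237 RPKM in ERY1-OVA cells and 266, 211 and 245 in OVA cells. Hspa5 stood at 278, 210.0 and 244 RPKM in TER119-SIINFEKL cells, 115 and 149.5 in SIINFEKL cells and 183, 161 and 171 in Naive cells. BiP RNA was higher in OVA by 0.48 ± 0.15 (adjusted p = 0.018) and in TER119-SIINFEKL by 0.50 ± 0.15 (adjusted p = 0.015), with no overlap with Naive, whereas ERY1-OVA overlapped it. The OVA call was lost without OVA replicate 1 (0.41), OVA replicate 3 (0.47) or Naive replicate 2 (0.44) and after quantile normalisation (0.23), and the TER119-SIINFEKL call without TER119-SIINFEKL replicate 1 (0.40) or Naive replicate 2 (0.45), with 0.32 after quantile normalisation.

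Pdia6 (chr12:17266545-17284770, plus strand), a disulfide isomerase that works with BiP, was at 50.1, 52.8 and 54.7 RPKM in ERY1-OVA cells and 86.2, 69.1 and 77.8 in OVA cells. Pdia6 stood at 71.2, 59.9 and 68.1 RPKM in TER119-SIINFEKL cells, 25.4 and 31.98 in SIINFEKL cells and 43.7, 36.7 and 39.2 in Naive cells. Every ERY1-OVA, OVA and TER119-SIINFEKL library was above every Naive library, and both SIINFEKL libraries were below. The log2 fold change was 0.96 ± 0.12 (adjusted p = 3.1e-05) in OVA, 0.74 ± 0.12 (adjusted p = 0.00025) in TER119-SIINFEKL, 0.40 ± 0.12 (adjusted p = 0.017) in ERY1-OVA and -0.48 ± 0.13 (adjusted p = 0.028) in SIINFEKL. The ERY1-OVA call was lost without ERY1-OVA replicate 3 (0.37), Naive replicate 2 (0.34) or Naive replicate 3 (0.39) and after quantile normalisation (0.28). The SIINFEKL call was lost without SIINFEKL replicate 1 (-0.32), Naive replicate 1 (-0.41) or Naive replicate 3 (-0.49).

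Hsp90b1, the ER HSP90 known as GRP94, which folds integrins and Toll-like receptors, was at 173, 139 and 139 RPKM in ERY1-OVA cells and 199, 192 and 219.9 in OVA cells. Hsp90b1 stood at 161, 153 and 167 RPKM in TER119-SIINFEKL cells, 80.4 and 105 in SIINFEKL cells and 139, 132 and 127 in Naive cells. GRP94 RNA was higher in OVA by 0.62 ± 0.12 (adjusted p = 0.0011) (0.35 after quantile normalisation), and its log2 fold change in SIINFEKL was -0.53 ± 0.13 (adjusted p = 0.019), lost without SIINFEKL replicate 1 (-0.34) or Naive replicate 1 (-0.49). The lectin genes were called in the same comparisons. Calr was at 238, 239 and 248 RPKM in ERY1-OVA cells and 336, 285 and 309 in OVA cells. Calr stood at 296, 255 and 272 RPKM in TER119-SIINFEKL cells, 155 and 177 in SIINFEKL cells and 254, 219 and 226 in Naive cells. Calreticulin RNA had 0.41 ± 0.11 (adjusted p = 0.0061) in OVA (0.19 and no call after quantile normalisation) and -0.49 ± 0.12 (adjusted p = 0.015) in SIINFEKL, lost without SIINFEKL replicate 1 (-0.39) or Naive replicate 1 (-0.42). Canx averaged 87.8 ± 9.40 RPKM in ERY1-OVA, 121 ± 8.06 in OVA, 104 ± 4.01 in TER119-SIINFEKL, 60.6 ± 12.8 in SIINFEKL and 91.4 ± 4.95 in Naive cells. Its log2 fold change was 0.40 ± 0.12 (adjusted p = 0.014) in OVA, lost without OVA replicate 3 (0.35) or Naive replicate 3 (0.36), after quantile normalisation (0.16) and after length and GC correction (0.30). In SIINFEKL it was -0.61 ± 0.13 (adjusted p = 0.0091), lost without SIINFEKL replicate 1 (-0.39).

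Pdia3, the disulfide isomerase ERp57 of the MHC class I loading complex, was called higher in 3 antigen groups, by 0.41 ± 0.10 (adjusted p = 0.0077) in ERY1-OVA, 0.77 ± 0.10 (adjusted p = 6.8e-05) in OVA and 0.44 ± 0.10 (adjusted p = 0.0039) in TER119-SIINFEKL (0.22, 0.51 and 0.22 after quantile normalisation). Fkbp2, an ER-resident prolyl isomerase, was at 26.4, 27.7 and 26.4 RPKM in ERY1-OVA cells and 41.7, 30.8 and 32.1 in OVA cells. Fkbp2 stood at 24.1, 24.1 and 27.2 RPKM in TER119-SIINFEKL cells, 13.3 and 13.98 in SIINFEKL cells and 16.6, 15.5 and 16.8 in Naive cells. It was higher in the same groups, by 0.72 ± 0.11 (adjusted p = 0.00029), 1.09 ± 0.11 (adjusted p = 7.4e-06) and 0.62 ± 0.11 (adjusted p = 0.00063) in that order, and no library of them overlapped Naive. Pdia4, ERp72, was not called against Naive in any group (0.05, 0.26, 0.23 and -0.23 in ERY1-OVA, OVA, TER119-SIINFEKL and SIINFEKL), except in OVA without OVA replicate 2 (0.34) or TER119-SIINFEKL replicate 1 (0.26). Ppib, the ER cyclophilin, ranged from 241 to 401 RPKM and was not called either.

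Against these, Dnajb9, the ER J protein ERdj4 that binds BiP and the stress sensor IRE1, was at 5.39, 11.2 and 17.8 RPKM in ERY1-OVA cells and 7.30, 14.5 and 10.6 in OVA cells. Dnajb9 stood at 6.69, 5.94 and 9.18 RPKM in TER119-SIINFEKL cells, 10.7 and 15.7 in SIINFEKL cells and 22.1, 16.9 and 31.6 in Naive cells. Only the TER119-SIINFEKL call of -1.67 ± 0.38 (adjusted p = 0.0027) held under every alternative. The log2 fold change of -1.13 ± 0.38 (adjusted p = 0.024) in OVA was lost without OVA replicate 1 (-0.88), OVA replicate 3 (-1.15), Naive replicate 1 (-1.15) or Naive replicate 3 (-0.90). The -1.15 ± 0.38 (adjusted p = 0.026) in ERY1-OVA was lost without ERY1-OVA replicate 1 (-0.69), ERY1-OVA replicate 2 (-1.22), Naive replicate 1 (-1.18) or Naive replicate 3 (-0.92). Dnajc14, an ER membrane J protein, was lower in OVA at -0.43 ± 0.10 (adjusted p = 0.0032) and in TER119-SIINFEKL at -0.35 ± 0.10 (adjusted p = 0.0094). Its ERY1-OVA call, -0.28 ± 0.10 (adjusted p = 0.037), was lost without ERY1-OVA replicate 2 or 3, TER119-SIINFEKL replicate 3 or any Naive library (-0.31 to -0.20). Dnajb11, the BiP co-chaperone ERdj3, was higher in OVA by 0.43 ± 0.10 (adjusted p = 0.0039) (0.26 and no call after quantile normalisation), while Dnajc3, the BiP co-chaperone p58IPK, was called in no comparison with Naive. It was called lower in TER119-SIINFEKL after quantile normalisation (-0.37) or length and GC correction (-0.36), and in SIINFEKL without SIINFEKL replicate 2 (-0.65).

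The ER stress response element, the paired site that NF-Y and the ATF6 factor bind in many BiP-like genes, was searched as CCAAT, any 9 bases and CCACG on both strands of the RefSeq promoter windows. It occurs in the windows of 37 of 27025 genes (0.137%), and of 6 of the 73 member symbols with a window, all of them among the 18 ER members with one. The 6 are Calr, Canx, Dnajc3, Hsp90b1, Hspa5 and Pdia6, and their sites are shown because 5 of them were higher in OVA than in Naive cells, 4 were lower in SIINFEKL, and Dnajc3 was called in neither with the same letters in its window. In TER119-SIINFEKL 2 of the 6 were higher (Hspa5 and Pdia6) and in ERY1-OVA 1 (Pdia6). Of all genes 24.4% were higher in OVA, 24.6% in TER119-SIINFEKL and 20.9% in ERY1-OVA, and 8.34% were lower in SIINFEKL. The sites were chosen for display by these calls, so the calls are no test of the element. Quantile normalisation ended the OVA calls of Calr (0.19), Canx (0.16) and Hspa5 (0.23) and left those of Hsp90b1 and Pdia6. Without SIINFEKL replicate 1 the SIINFEKL values were -0.39 for Calr, -0.39 for Canx, -0.34 for Hsp90b1 and -0.32 for Pdia6, and these calls were lost. Of the 11 tested ER members with a window and no such match, 3 were higher and 4 lower in OVA, and none was called in SIINFEKL. A match describes letters and does not show that the site is used. Capitals mark the matched bases, each sequence runs 5′ to 3′ on the strand of its gene (GRCm38.p6), and each site ends 47 to 194 bases before the start.
Hspa5 (chr2:34772020-34772048, plus strand, shortened because a GENCODE exon covers it): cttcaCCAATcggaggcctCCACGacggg
Pdia6 (chr12:17266461-17266539, plus strand): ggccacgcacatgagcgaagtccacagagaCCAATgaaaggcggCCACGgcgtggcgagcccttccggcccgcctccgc
Hsp90b1 (chr10:86705608-86705686, minus strand): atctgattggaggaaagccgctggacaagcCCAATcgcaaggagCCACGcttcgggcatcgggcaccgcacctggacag
Hsp90b1, the site nearer the start, in reverse (chr10:86705528-86705556, minus strand): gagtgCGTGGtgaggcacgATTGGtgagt
Calr, in reverse (chr8:84847045-84847123, minus strand): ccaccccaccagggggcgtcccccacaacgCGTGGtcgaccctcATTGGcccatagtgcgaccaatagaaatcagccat
Canx (chr11:50325770-50325848, minus strand): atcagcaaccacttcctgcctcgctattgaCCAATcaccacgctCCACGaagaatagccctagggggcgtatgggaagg
Dnajc3 (chr14:118937797-118937875, plus strand): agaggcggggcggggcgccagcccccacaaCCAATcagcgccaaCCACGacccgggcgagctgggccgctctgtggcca

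Of the 10 HSP70 and HSP110 rows, 3 were higher and 2 lower in ERY1-OVA, 3 higher in OVA, 4 higher in TER119-SIINFEKL, and 1 higher and 3 lower in SIINFEKL. Hspa8 (chr9:40800984-40810087, plus strand), the constitutive HSC70 and the most abundant member, was at 2055, 2279 and 1954 RPKM in ERY1-OVA cells and 2870.5, 2329.9 and 2311 in OVA cells. Hspa8 stood at 2869, 1952 and 2463 RPKM in TER119-SIINFEKL cells, 1182 and 1427 in SIINFEKL cells and 1953, 2124 and 1908 in Naive cells. ERY1-OVA, OVA and TER119-SIINFEKL were not called against Naive, but OVA and TER119-SIINFEKL were called higher after quantile normalisation (0.53 in each). Both SIINFEKL libraries were below all others. For Hspa8 in SIINFEKL the log2 fold change was -0.62 ± 0.19 (adjusted p = 0.038), a call lost without SIINFEKL replicate 1 (-0.48), TER119-SIINFEKL replicate 3 (-0.62) or any Naive library (-0.65 to -0.57) and after quantile normalisation (-0.22). Hspa4, an HSP110 family nucleotide exchange factor, was higher in OVA by 0.55 ± 0.12 (adjusted p = 0.0019) and in TER119-SIINFEKL by 0.63 ± 0.12 (adjusted p = 0.00075). Its relative Hspa4l was at 5.67, 4.50 and 4.02 RPKM in ERY1-OVA cells and 2.73, 3.74 and 3.69 in OVA cells. Hspa4l stood at 5.53, 5.29 and 5.18 RPKM in TER119-SIINFEKL cells, 6.42 and 4.28 in SIINFEKL cells and 3.30, 3.41 and 2.66 in Naive cells.

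Hspa4l was the 1 member called higher in SIINFEKL, at 0.75 ± 0.21 (adjusted p = 0.029), and that call was lost without SIINFEKL replicate 1 (0.46), Naive replicate 1 (0.80) or Naive replicate 3 (0.64). Hspa4l was higher in TER119-SIINFEKL by 0.78 ± 0.19 (adjusted p = 0.0044) and in ERY1-OVA by 0.59 ± 0.19 (adjusted p = 0.025), the ERY1-OVA call being lost without ERY1-OVA replicate 1 (0.45), ERY1-OVA replicate 2 (0.62) or Naive replicate 3 (0.48), and not in OVA (0.11, adjusted p = 0.65). Hspbp1, which releases nucleotide from HSP70 and inhibits refolding, was at 24.4, 25.3 and 24.4 RPKM in ERY1-OVA cells and 33.00, 35.2 and 31.3 in OVA cells. Hspbp1 stood at 35.8, 29.97 and 36.4 RPKM in TER119-SIINFEKL cells, 15.2 and 21.3 in SIINFEKL cells and 32.2, 33.7 and 36.05 in Naive cells. ERY1-OVA and SIINFEKL lay below every Naive library, with log2 fold changes of -0.46 ± 0.12 (adjusted p = 0.0097) and -0.91 ± 0.14 (adjusted p = 0.00094). Hspa14, a ribosome-associated HSP70, had a main row that was higher in ERY1-OVA by 0.54 ± 0.11 (adjusted p = 0.0016), in OVA by 0.76 ± 0.11 (adjusted p = 9.9e-05) and in TER119-SIINFEKL by 0.66 ± 0.11 (adjusted p = 0.00028), and its second row, between 1.28 and 4.09 RPKM, was called higher in the same groups. The files do not show how reads were shared between these rows, so both are uncertain.

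The inducible HSP70 genes stood far above their other levels in 1 Naive library. Hspa1a and Hspa1b, near-identical genes for the inducible HSP70 whose reads may be split or shared between them, were at 40.5 and 49.0 RPKM in Naive replicate 2, against 0.172 to 3.08 and 0.114 to 3.64 in the other 13 libraries. Hsph1, an HSP110 protein, was at 53.4, 34.1 and 30.8 RPKM in ERY1-OVA cells and 59.2, 68.00 and 65.7 in OVA cells. Hsph1 stood at 58.97, 44.3 and 60.9 RPKM in TER119-SIINFEKL cells, 18.8 and 46.1 in SIINFEKL cells and 64.9, 89.3 and 55.8 in Naive cells. Dnaja1, a J protein of HSP70 and HSP90 cycles, was at 67.9, 53.6 and 49.7 RPKM in ERY1-OVA cells and 67.5, 68.9 and 70.5 in OVA cells. Dnaja1 stood at 71.4, 50.4 and 66.4 RPKM in TER119-SIINFEKL cells, 35.6 and 64.6 in SIINFEKL cells and 66.5, 111 and 66.9 in Naive cells. Naive replicate 2 was the highest of the 14 libraries for these 4 genes and for Dnajb1, which were put together after their values were seen. It was also the highest for other members, among them Dnajb2, Dnajb4, Dnajb13, Dnajc21 and Fkbp15. Hsp90aa1, Hspd1 and Hspe1 did not peak there but in OVA libraries, at 374, 212 and 413 RPKM, against 213, 119 and 178 in Naive replicate 2. Neither Hspa1a nor Hspa1b was called against Naive, except lower in TER119-SIINFEKL without Naive replicate 1 (-3.36 and -3.31). Of the genes that rise during cell handling, Fos was at 188, 132 and 418 RPKM in the 3 Naive libraries. Jun was at 63.2, 75.9 and 143 RPKM there and Btg2 at 48.4, 75.5 and 72.6. Naive replicate 2 was the highest of the 14 libraries for Btg2 and not for Fos or Jun. The part of handling in these levels was not tested. Hsph1 had a log2 fold change of -0.84 ± 0.29 (adjusted p = 0.032) in ERY1-OVA, lost without ERY1-OVA replicate 2 (-0.76) or 3 (-0.69) or Naive replicate 1 (-0.88) or 2 (-0.65). In SIINFEKL it was -1.22 ± 0.32 (adjusted p = 0.023), -0.57 and no call without SIINFEKL replicate 1, -1.87 without SIINFEKL replicate 2, and -1.03 and no call without Naive replicate 2.

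**Figure D3:**
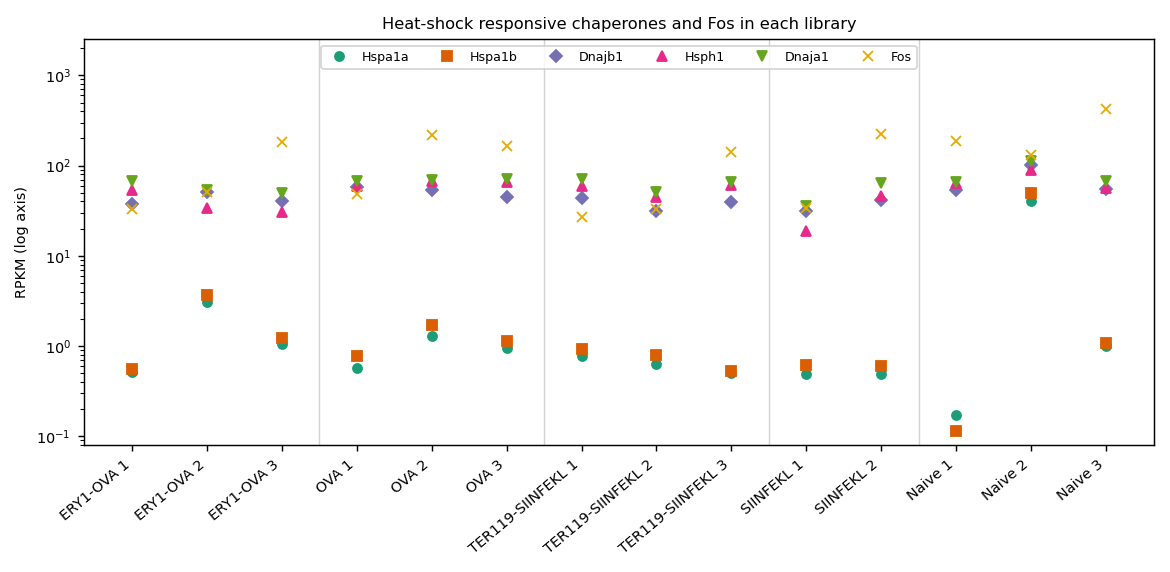
RPKM on a log axis of 5 of the chaperone genes that were highest in Naive replicate 2, and of Fos, in each of the 14 libraries, in order of group. Hspa1a and Hspa1b reach 40.5 and 49.0 in Naive replicate 2 and stay at or under 3.64 in every other library. Fos is highest, at 418, in Naive replicate 3, and the part of cell handling in these levels was not tested.

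J proteins of classes A and B are the general partners of HSP70. Of the 9 outside the ER and mitochondrial sets, 0 were higher than in Naive cells in any antigen group, by limma at an adjusted or an unadjusted p under 0.05. Called lower were 4 in ERY1-OVA, 3 in OVA, 4 in TER119-SIINFEKL and 3 in SIINFEKL. Of all genes 19.0%, 23.1%, 23.0% and 8.34% were lower in that order, and 20.9%, 24.4%, 24.6% and 7.58% higher. The 3 of 9 lower in OVA were not far from the share of all genes. The role medians were -0.48, -0.20, -0.35 and -0.49 in that order (-0.40 in OVA after quantile normalisation and -0.31 after length and GC correction). Of the class B J proteins counted with the ER, Dnajb11 was called higher in OVA (0.43, and 0.26 without a call after quantile normalisation) and Dnajb9 lower (-1.13). Dnaja1, Dnajb1, Dnajb2, Dnajb4 and Dnajb13 had their highest level in Naive replicate 2. Dnajb2, a J protein with ubiquitin-interacting motifs, was at 1.81, 1.45 and 1.57 RPKM in ERY1-OVA cells and 2.03, 3.30 and 2.24 in OVA cells. Dnajb2 stood at 1.68, 1.25 and 2.15 RPKM in TER119-SIINFEKL cells, 1.75 and 2.93 in SIINFEKL cells and 4.90, 6.81 and 5.78 in Naive cells. All antigen libraries were below all Naive libraries. Its log2 fold change was -1.85 ± 0.26 (adjusted p = 9.6e-05) in ERY1-OVA, -1.23 ± 0.26 (adjusted p = 0.0017) in OVA, -1.80 ± 0.26 (adjusted p = 8.5e-05) in TER119-SIINFEKL and -1.35 ± 0.29 (adjusted p = 0.0078) in SIINFEKL, the last -0.98 and not called without SIINFEKL replicate 1.

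Dnajb4, a class B partner of HSP70, was at 4.87, 6.08 and 8.83 RPKM in ERY1-OVA cells and 5.78, 5.74 and 5.77 in OVA cells. Dnajb4 stood at 4.45, 4.65 and 5.33 RPKM in TER119-SIINFEKL cells, 4.09 and 6.88 in SIINFEKL cells and 9.26, 13.9 and 11.1 in Naive cells. The log2 fold change of Dnajb4 was -0.96 ± 0.23 (adjusted p = 0.0036) in OVA and -1.23 ± 0.23 (adjusted p = 0.00065) in TER119-SIINFEKL. In ERY1-OVA it was -0.81 ± 0.23 (adjusted p = 0.012), lost without ERY1-OVA replicate 1 (-0.62) or Naive replicate 2 (-0.66), and in SIINFEKL -1.08 ± 0.25 (adjusted p = 0.013), lost without SIINFEKL replicate 1 (-0.71). Dnaja4, a class A J protein, was at 6.70, 6.79 and 6.24 RPKM in ERY1-OVA cells and 6.73, 9.35 and 6.18 in OVA cells. Dnaja4 stood at 7.34, 5.55 and 7.14 RPKM in TER119-SIINFEKL cells, 6.84 and 15.2 in SIINFEKL cells and 12.3, 15.1 and 15.7 in Naive cells. The 9 libraries of ERY1-OVA, OVA and TER119-SIINFEKL lay below Naive, and the SIINFEKL libraries stood apart, 1 with the low groups and 1 with Naive. The log2 fold changes were -1.12 ± 0.24 (adjusted p = 0.0026) in ERY1-OVA, -0.97 ± 0.24 (adjusted p = 0.0053) in OVA and -1.11 ± 0.24 (adjusted p = 0.0021) in TER119-SIINFEKL, and the -0.49 in SIINFEKL was called without SIINFEKL replicate 2 (-1.06) but not with both libraries.

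Dnajb1, HSP40, was at 37.3, 51.4 and 40.7 RPKM in ERY1-OVA cells and 57.8, 54.1 and 45.02 in OVA cells. Dnajb1 stood at 43.97, 31.2 and 39.3 RPKM in TER119-SIINFEKL cells, 31.1 and 41.1 in SIINFEKL cells and 53.9, 100.4 and 54.7 in Naive cells. In TER119-SIINFEKL cells HSP40 RNA had -0.82 ± 0.22 (adjusted p = 0.0088), and was -0.52 and still called without Naive replicate 2. The -0.64 ± 0.22 (adjusted p = 0.036) in ERY1-OVA was lost without that library (-0.35) or without ERY1-OVA replicate 1 (-0.54) or 3 (-0.61), and the -0.90 ± 0.25 (adjusted p = 0.028) in SIINFEKL without it (-0.60) or without SIINFEKL replicate 1 (-0.70). Genes that rise when cells are handled were read from a list. Beside 19.0%, 23.1%, 23.0% and 8.34% of all genes, 4 of 9 tested were lower in ERY1-OVA, 3 in OVA, 4 in TER119-SIINFEKL and 0 in SIINFEKL. In SIINFEKL limma gave 1 of these handling genes an unadjusted p under 0.05. Their summed RPKM ran from 353 to 1161 in ERY1-OVA, 422 to 1149 in OVA, 349 to 779 in TER119-SIINFEKL, 529.9 and 1172 in SIINFEKL and 914 to 1952 in Naive libraries, and their part in the result was not tested.

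Class C J proteins hold a J domain in varied settings. Of the 14 outside the ER and mitochondrial sets, 1 was higher and 1 lower in ERY1-OVA, 2 higher and 1 lower in OVA, and 2 higher and 1 lower in TER119-SIINFEKL. These counts lay under the shares of all genes. In SIINFEKL 0 were called, and limma gave 0 a higher and 3 a lower level at an unadjusted p under 0.05. Dnajc9, which also acts as a chaperone of histones H3 and H4, was at 99.5, 104 and 105 RPKM in ERY1-OVA cells and 121, 101 and 111 in OVA cells. Dnajc9 stood at 105, 89.99 and 101 RPKM in TER119-SIINFEKL cells, 80.1 and 66.02 in SIINFEKL cells and 70.6, 63.8 and 71.1 in Naive cells. Dnajc9 was higher in ERY1-OVA by 0.59 ± 0.11 (adjusted p = 0.00075), in OVA by 0.69 ± 0.11 (adjusted p = 0.00018) and in TER119-SIINFEKL by 0.53 ± 0.11 (adjusted p = 0.0013) (0.32 after length and GC correction). Dnajc21, a factor of ribosome biogenesis, had a log2 fold change of -0.65 ± 0.15 (adjusted p = 0.0043) in ERY1-OVA and was not called in the other groups, except in SIINFEKL without SIINFEKL replicate 2 (-0.74).

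Other prolyl isomerases had 3 members higher in ERY1-OVA, 3 in OVA, 4 in TER119-SIINFEKL and none called in SIINFEKL, of 7. Ppih (chr4:119300010-119320546, minus strand), the cyclophilin of the spliceosomal U4/U6.U5 particle, was at 42.6, 78.9 and 66.5 RPKM in ERY1-OVA cells and 105, 53.5 and 65.3 in OVA cells. Ppih stood at 68.1, 49.6 and 54.9 RPKM in TER119-SIINFEKL cells, 28.7 and 19.5 in SIINFEKL cells and 24.9, 22.7 and 25.4 in Naive cells. Every ERY1-OVA, OVA and TER119-SIINFEKL library was above every Naive library, while the SIINFEKL libraries spanned them. The log2 fold changes of 1.32 ± 0.25 (adjusted p = 0.0012) in ERY1-OVA, 1.56 ± 0.25 (adjusted p = 0.00028) in OVA and 1.23 ± 0.25 (adjusted p = 0.0015) in TER119-SIINFEKL were the largest called increases among the members in each of these groups.

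In SIINFEKL, 0 of these 7 were called higher or lower, and limma gave 2 a lower level at an unadjusted p under 0.05. Ppia, cyclophilin A, which binds cyclosporin, was at 807, 1088 and 1006 RPKM in ERY1-OVA cells and 1449, 989.7 and 1052 in OVA cells. Ppia stood at 1071, 849 and 985 RPKM in TER119-SIINFEKL cells, 503 and 525 in SIINFEKL cells and 747, 634 and 704 in Naive cells. Ppia had 0.73 ± 0.16 (adjusted p = 0.0029) in OVA. The 0.47 ± 0.16 (adjusted p = 0.036) in ERY1-OVA was lost without ERY1-OVA replicate 2 or 3 or any Naive library (0.38 to 0.52), and the 0.48 ± 0.16 (adjusted p = 0.029) in TER119-SIINFEKL without TER119-SIINFEKL replicate 1 or 3 or Naive replicate 2 or 3 (0.40 to 0.49). Fkbp1a, FKBP12, the target of tacrolimus and rapamycin, was higher in OVA by 0.49 ± 0.09 (adjusted p = 0.00087) (0.29 after quantile normalisation) and in TER119-SIINFEKL by 0.50 ± 0.09 (adjusted p = 0.00063). Its call in ERY1-OVA, 0.26 ± 0.09 (adjusted p = 0.039), was lost without any ERY1-OVA or Naive library, OVA replicate 3 or TER119-SIINFEKL replicate 3 (0.25 to 0.28) and after quantile normalisation (0.11). Of the 3 other Hsp-named genes, Hspbap1 was lower in OVA at -0.61 ± 0.17 (adjusted p = 0.0082) and in TER119-SIINFEKL at -0.52 ± 0.17 (adjusted p = 0.018), the second call being lost without TER119-SIINFEKL replicate 2 (-0.50) or 3 (-0.48) or Naive replicate 2 (-0.42), and Hspb6 and Hspb11 were not called. The single member below the filter was Dnajb14, an ER membrane J protein, listed between 0.195 and 0.331 RPKM in ERY1-OVA, OVA and TER119-SIINFEKL libraries, 0.517 and 0.668 in SIINFEKL, and 0.820 to 1.09 in Naive libraries, and it was not tested in the main comparison. Hspa2, a testis-enriched HSP70 gene, passed just above the filter with a mean of 1.02 RPKM and was not called. Without Naive replicate 3 it was called higher in OVA (1.93, adjusted p = 0.037) and TER119-SIINFEKL (1.81, adjusted p = 0.049).

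Erythrocyte targeting was compared within each form of antigen. For the protein, ERY1-OVA against OVA, no member was higher and 3 were lower, Ppid at -0.64 ± 0.13 (adjusted p = 0.035), Pdia6 at -0.56 ± 0.12 (adjusted p = 0.041) and Hspd1 at -0.77 ± 0.17 (adjusted p = 0.048), while 0.408% of all genes were higher and 0.654% lower (1.06% together). Their libraries did not overlap, as the values above show. The median over members was -0.20, against 0.00 over all genes. At an unadjusted p under 0.05 limma gave 2 members higher and 26 lower. The share of all genes at that threshold was not counted, so these counts have no background to be read against. In all, 22 of 89 members had a log2 fold change above 0. The largest differences without a call were those of Fkbp4 at -0.79 ± 0.19 (adjusted p = 0.067), Hsph1 at -0.75 ± 0.29 (adjusted p = 0.21) and Hsp90aa1 at -0.73 ± 0.18 (adjusted p = 0.063). With single libraries left out the log2 fold changes ran from -0.71 to -0.53 for Ppid, -0.64 to -0.48 for Pdia6 and -0.91 to -0.67 for Hspd1. Quantile normalisation left none of the 3 called (-0.59 for Ppid, -0.50 for Pdia6 and -0.67 for Hspd1, adjusted p = 0.053, 0.053 and 0.092). Length and GC correction ended the call of Hspd1 (-0.73, adjusted p = 0.054). None of the 3 was called when any ERY1-OVA or OVA library, TER119-SIINFEKL replicate 2 or 3, or Naive replicate 3 was left out. Without Naive replicate 1 or 2, 1 was called. When the SIINFEKL group was left out of the fit, 11 members were called. That fit changed the shared spread of all genes, and its share of all genes called is not given here. The 11 thus have no background to be read against.

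For the peptide, TER119-SIINFEKL against SIINFEKL, 42 members were higher and 2 lower, while 20.4% of all genes were higher and 17.0% lower (37.4% together). The median was 0.42 over members and 0.00 over all genes, and 0.26 over members after quantile normalisation. All 8 CCT subunits were called higher (0.65 to 1.07), as were 6 of 10 HSP70 and HSP110 rows, 5 of 6 of HSP90 and its immunophilins, 9 of 19 ER members, 5 of 9 mitochondrial members and 3 of 4 prefoldin subunits. Of the class A and B J proteins outside the ER and mitochondrial sets, 0 of 9 were called. At an unadjusted p under 0.05 limma gave 1 of them higher and 1 lower. Hsp90ab1 averaged 1888 ± 101 RPKM in TER119-SIINFEKL and 768 ± 87.7 in SIINFEKL cells (SD, n = 3 and 2), a log2 fold change of 1.30 ± 0.13 (adjusted p = 1.7e-05). Pdia6 averaged 66.4 ± 5.84 RPKM in TER119-SIINFEKL and 28.7 ± 4.64 in SIINFEKL cells, with 1.22 ± 0.13 (adjusted p = 2.8e-05). Hspd1 averaged 182 ± 13.02 RPKM in TER119-SIINFEKL and 57.3 ± 17.7 in SIINFEKL cells, with 1.70 ± 0.19 (adjusted p = 3.1e-05). Hsp90aa1 and Ppid followed with 1.60 ± 0.20 (adjusted p = 6.9e-05) and 1.15 ± 0.14 (adjusted p = 7.7e-05). The 2 lower members were Dnajc14, -0.36 ± 0.11 (adjusted p = 0.019), lost without either SIINFEKL library (-0.37 to -0.36), and Dnajc5, the cysteine string protein, -0.45 ± 0.14 (adjusted p = 0.023), lost without TER119-SIINFEKL replicate 1 (-0.32) or either SIINFEKL library (-0.47 to -0.43). In all, 29 of the 44 calls were kept under every alternative. Hsph1 was lost under 11 of them and fell to 0.23 without SIINFEKL replicate 1, and Dnajc11 had the same value there. Hspa9 kept its call without that library at 0.66, against 1.13 with it, and Fkbp4 at 0.45, against 0.98. Without SIINFEKL replicate 2, Pfdn1 was lost at 0.34. Leaving out single libraries left 35 to 42 members higher, and 1 lower without TER119-SIINFEKL replicate 1 or SIINFEKL replicate 1.

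The difference between the 2 targeting effects, peptide minus protein, was tested as an interaction, and it was positive for 43 members and negative for 3, while 20.6% of all genes were called positive and 17.1% negative (37.7% together). The 3 negative ones were Dnajc14, Dnajc5 and Dnajb5. The median over members was 0.65, against -0.02 over all genes. Of the 46 calls, 34 were kept under every alternative run. By sign alone, without a threshold, 61 of the 89 members were lower in ERY1-OVA than in OVA and higher in TER119-SIINFEKL than in SIINFEKL. Another 6 were higher in both. The share of all genes with these signs was not counted. Only 3 members were called in ERY1-OVA against OVA, and 0 of those calls were kept under every alternative. Hspd1 had the largest interaction, 2.46 ± 0.25 (adjusted p = 2.3e-05), followed by Hsp90aa1 with 2.34 ± 0.27 (adjusted p = 4.4e-05). The groups of each pair differ in targeting, and the 2 pairs differ in the form of antigen and in the targeting agent, ERY1 or TER119, which cannot be told apart here.

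**Figure D4:**
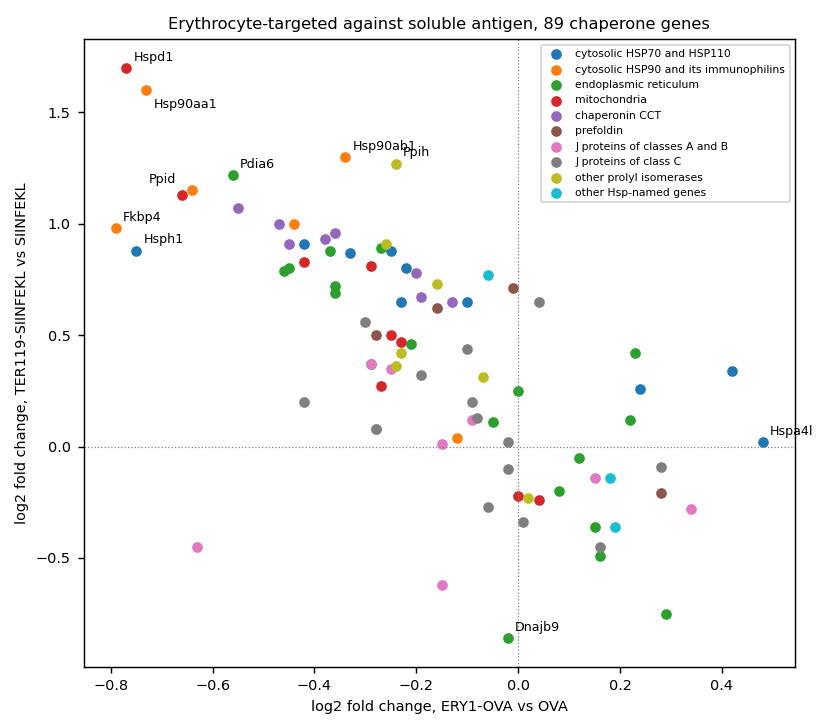
Log2 fold change of the 89 tested members in ERY1-OVA against OVA (horizontal axis) and in TER119-SIINFEKL against SIINFEKL (vertical axis), coloured by role; no library is shared between the axes. Hspd1 and Hsp90aa1 sit at the upper left (-0.77 and 1.70, and -0.73 and 1.60). By sign alone 61 of the 89 points lie in that quadrant, and the share of all genes there was not counted.

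Genes that work beside the members were read from lists, beside the shares of all genes given above (20.9% higher and 19.0% lower in ERY1-OVA, 24.4% and 23.1% in OVA, 24.6% and 23.0% in TER119-SIINFEKL, 7.58% and 8.34% in SIINFEKL). Of 22 co-chaperones of HSP90 and HSP70, 2 were higher and 1 lower in ERY1-OVA, 5 higher and 1 lower in OVA, 5 higher and 2 lower in TER119-SIINFEKL, and 5 lower in SIINFEKL. In the first 3 groups these counts were near or under the shares of all genes, and the median log2 fold changes were -0.14, 0.22, 0.03 and -0.29 in that order. Aarsd1 was higher in OVA by 0.83 ± 0.12 (adjusted p = 0.00014), and in SIINFEKL Stip1, HOP, which bridges HSP70 and HSP90, had -1.15 ± 0.21 (adjusted p = 0.003) and Ptges3, the p23 co-chaperone, -1.05 ± 0.16 (adjusted p = 0.0012). Of 33 other ER folding factors, 3 were higher and 7 lower in ERY1-OVA, 6 higher and 7 lower in OVA, 4 higher and 5 lower in TER119-SIINFEKL, and 1 higher and 6 lower in SIINFEKL, with medians of -0.05, 0.00, -0.01 and -0.16. The counts of higher genes lay under the shares of all genes in ERY1-OVA, OVA and TER119-SIINFEKL. Sdf2l1, an ER stress-inducible partner of BiP, was at 25.8, 32.9 and 32.1 RPKM in ERY1-OVA cells and 62.3, 42.96 and 46.4 in OVA cells. Sdf2l1 stood at 35.7, 26.7 and 34.2 RPKM in TER119-SIINFEKL cells, 8.83 and 7.48 in SIINFEKL cells and 13.3, 13.2 and 14.6 in Naive cells. Its level was higher by 1.13 ± 0.16 (adjusted p = 9.1e-05) in ERY1-OVA, 1.86 ± 0.16 (adjusted p = 1.1e-06) in OVA and 1.22 ± 0.16 (adjusted p = 3.5e-05) in TER119-SIINFEKL. It was also lower in ERY1-OVA than in OVA, at -0.73 ± 0.16 (adjusted p = 0.041), as was Creld2, at -0.71 ± 0.10 (adjusted p = 0.018). Tmx4, a membrane thioredoxin, was lower in all 4 groups, from -1.12 in TER119-SIINFEKL to -0.82 in SIINFEKL.

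Of 11 regulators of the unfolded protein response, 4 were lower in ERY1-OVA, 1 higher and 4 lower in OVA, 1 higher and 3 lower in TER119-SIINFEKL, and 2 lower in SIINFEKL, with medians of -0.22, -0.28, -0.26 and -0.27. Ern1, which encodes IRE1, had log2 fold changes of -1.26 ± 0.21 (adjusted p = 0.00038) in ERY1-OVA, -1.06 ± 0.21 (adjusted p = 0.0012) in OVA, -1.41 ± 0.21 (adjusted p = 0.00012) in TER119-SIINFEKL and -0.77 ± 0.23 (adjusted p = 0.038) in SIINFEKL. Xbp1, the factor whose RNA IRE1 splices, was higher in OVA by 0.33 ± 0.10 (adjusted p = 0.013) and lower in SIINFEKL at -0.37 ± 0.11 (adjusted p = 0.033). Of 13 mitochondrial folding factors, 1 was lower in ERY1-OVA, 6 were higher in OVA, 3 higher in TER119-SIINFEKL and 1 lower in SIINFEKL, with medians of 0.13, 0.29, 0.28 and -0.11. Trap1, the mitochondrial HSP90, was higher in OVA by 0.61 ± 0.11 (adjusted p = 0.0007) and in TER119-SIINFEKL by 0.52 ± 0.11 (adjusted p = 0.0021). Of 15 prefoldin and tubulin folding factors, 3 were higher in ERY1-OVA, 7 in OVA and 6 in TER119-SIINFEKL, and 2 were lower in SIINFEKL, with medians of 0.21, 0.35, 0.28 and -0.15. Ruvbl1, an ATPase that assembles complexes with HSP90, was higher in OVA by 0.73 ± 0.10 (adjusted p = 5.1e-05) and in TER119-SIINFEKL by 0.89 ± 0.10 (adjusted p = 8.6e-06), and had -0.39 ± 0.11 (adjusted p = 0.028) in SIINFEKL. Hsf1, the main heat shock factor, had -0.52 ± 0.16 (adjusted p = 0.019) in ERY1-OVA, -0.41 ± 0.16 (adjusted p = 0.047) in OVA and -0.49 ± 0.16 (adjusted p = 0.02) in TER119-SIINFEKL, and Hsf2 had -0.76 ± 0.24 (adjusted p = 0.044) in SIINFEKL.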

How the data were processed

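The authors deposited 1 table of log2 RPKM values for 10106 genes in 14 libraries; GRCm38 and mm10 are the builds, and STAR 2.4.2, edgeR and bcl2fastq 2.17.1.14 the tools, per the submitters' processing notes. The prior count is not given in the sources used here, so the sequencing depth is unknown and no counting interval is given. RNA came from sorted cells through a stranded mRNA kit, per the labels' protocols. The values were fitted with limma 3.58.1 (R 4.3.3), 5 group means with a mean-dependent prior, on 9793 genes with a mean of at least 1 RPKM, and p-values were adjusted by Benjamini-Hochberg over all of them per comparison. The log base was checked from the sums of RPKM times gene length. The model was tested on simulated data for OVA against Naive, with the same spread in all groups for each gene. It called 29.4% of changes of 0.5 on the log2 scale, 86.4% of changes of 1 and 97% of changes of 2. It also called 6 unchanged genes. Many changes near 0.5 would thus be missed, and the larger spread of the SIINFEKL libraries was not simulated. Members and lists were chosen with earlier results of these data known. Named genes were a core set of classic chaperones plus, per comparison, the 5 members with the smallest adjusted p in each direction among those called without overlap; other members appear by count, range or single values. Positions come from GENCODE vM21 and promoters from RefSeq on GRCm38.p6. Same-numbered libraries deviated together (each r over 0.1) in TER119-SIINFEKL against Naive, and in no other comparison with 3 pairs. The values given for all comparisons, that one included, come from the fit without pairs. The replicate block was fitted over all 5 groups at once and served only as an alternative. Alternatives were quantile normalisation, a pseudocount of 1, no filter, a replicate block, length and GC correction, and leaving out libraries.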

Additional observations from a re-analysis of the deposited data

Results flagged for a closer look

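Each gene below stood out because the effect of erythrocyte targeting on its log2 level differed between peptide and protein antigen, by limma's interaction test (adjusted p under 0.05). Values are the effect in TER119-SIINFEKL against SIINFEKL minus that in ERY1-OVA against OVA. Among HSP90 and its immunophilins it was 2.34 for Hsp90aa1, 1.64 for Hsp90ab1, 1.79 for Ppid, 1.76 for Fkbp4 and 1.44 for Fkbp5. Among HSP70 and HSP110 proteins it was 1.14 for Hspa8, 1.20 for Hspa4, 1.63 for Hsph1, 1.34 for Hspbp1, and 1.02 and 0.88 for the 2 rows of Hspa14. Without SIINFEKL replicate 1, Hsph1 was 0.98 and no longer called (adjusted p = 0.053), and the second Hspa14 row was lost under 9 alternatives (0.79 to 0.91). All 8 CCT subunits were included, with 1.32 for Tcp1, 0.87 for Cct2, 1.48 for Cct3, 0.78 for Cct4, 0.98 for Cct5, 1.62 for Cct6a, 1.31 for Cct7 and 1.36 for Cct8, and prefoldin gave 0.78 for Pfdn2. Cct4 was lost under 6 alternatives (0.45 to 0.82), and Pfdn2 after length and GC correction (0.45) or without SIINFEKL replicate 1 (0.55). Quantile normalisation gave 0.52 for Cct2 and 0.64 for Cct5, both still called.

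In mitochondria it was 2.46 for Hspd1, 1.10 for Hspe1, 1.79 for Hspa9, 1.25 for Ppif and 0.75 for Dnajc11. Hspe1 was lost under 7 alternatives, with 0.62 at the lowest, and Dnajc11 without SIINFEKL replicate 1 (0.48). In the ER it was 1.16 for Hspa5, 1.25 for Hsp90b1, 1.08 for Calr, 1.25 for Canx, 1.05 for Pdia3, 0.68 for Pdia4, 1.78 for Pdia6, 1.25 for Fkbp2, 0.65 for Dnajb11 and -0.51 for Dnajc14. Among other prolyl isomerases it was 1.17 for Ppia, 0.89 for Ppie, 1.50 for Ppih and 0.65 for Fkbp1a. J proteins gave 0.60 for Dnaja2, -0.62 for Dnajb5, 0.87 for Dnajc2, -0.61 for Dnajc5, 0.51 for Dnajc8, 0.54 for Dnajc9 and 0.62 for Dnajc21. Apart from that of Dnajc2, these calls depended on the alternative. Dnaja2 was lost under 13 of them and Dnajc21 under 12, with 0.35 (adjusted p = 0.23) and 0.31 (adjusted p = 0.26) without SIINFEKL replicate 1. Dnajb5 was lost under 14, among them without any ERY1-OVA, OVA or TER119-SIINFEKL library (-0.67 to -0.55). Dnajc8 was lost under 6 (0.17 to 0.45) and Dnajc9 under 4 (0.27 to 0.43). Dnajc5 was lost without SIINFEKL replicate 1 (-0.59), and without OVA replicate 1 and TER119-SIINFEKL replicate 1 together (-0.41). Length and GC correction gave 0.40 for Pdia4, 0.59 for Ppie and 0.71 for Hspe1, and quantile normalisation 0.42 for Fkbp1a, all still called.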

How the results depend on the processing

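No member's fold change turned its sign past the threshold under any alternative run, and a pseudocount of 1 or no filter ended no call. The counts of members moved by over 1.5 times as follows. Quantile normalisation gave 19 members lower in ERY1-OVA than in Naive and 0 lower in ERY1-OVA than in OVA. Length and GC correction gave 7 lower in ERY1-OVA than in OVA and 4 lower in TER119-SIINFEKL than in SIINFEKL. Leaving out OVA replicate 1 and TER119-SIINFEKL replicate 1 together gave 0 and 1 for these, and leaving SIINFEKL out of the fit gave 11 for the first. The shares of all genes called in these 2 fits are not given here. The replicate block gave 1 lower in ERY1-OVA than in OVA, 0 higher in SIINFEKL than in Naive and 4 lower in TER119-SIINFEKL than in SIINFEKL. Same-numbered libraries correlated between -0.44 and 0.67 in their deviations from group means, over 0.1 in 14 of 26 pairs. In TER119-SIINFEKL against Naive all 3 were (0.26 to 0.32, against -0.26 to -0.10 between other numbers), and there the block left every member call, 29 higher and 9 lower. Deviations from a group mean cancel within the group, which ties the second range to the first. SIINFEKL against Naive had only 2 such pairs (0.12 and 0.19, against -0.19 to 0.06). In the remaining comparisons not every same-numbered pair was over 0.1. The block did not call Cct2, Fkbp8, Fkbp1a and Dnajc14 in ERY1-OVA (adjusted p = 0.068, 0.055, 0.059 and 0.053), Hspa8 and Hspa4l in SIINFEKL (adjusted p = 0.053 each), Pdia6 and Hspd1 in ERY1-OVA against OVA, the second Hspa14 row in TER119-SIINFEKL against SIINFEKL, or Dnaja2, Dnajc21 and that row in the interaction. It newly called Hspa2 in OVA (1.35, adjusted p = 0.041), Dnajc16 in ERY1-OVA, and Dnajb9 and Dnajc16 in TER119-SIINFEKL against SIINFEKL. With single libraries left out, members higher and lower numbered 9 to 20 and 7 to 14 in ERY1-OVA, 29 to 38 and 5 to 10 in OVA, 25 to 30 and 7 to 10 in TER119-SIINFEKL, and 0 to 2 and 4 to 31 in SIINFEKL, all against Naive. They numbered 0 and 0 to 11 in ERY1-OVA against OVA, 35 to 42 and 1 to 2 in TER119-SIINFEKL against SIINFEKL, and 38 to 42 and 2 to 3 in the interaction. In every fit with SIINFEKL, that group was assumed to vary like the others, also where only 1 of its libraries remained. Leaving SIINFEKL out of the fit changed no fold change of ERY1-OVA against OVA (-0.79 for Fkbp4 and -0.73 for Hsp90aa1 both ways). It changed only the shared spread and the p-values. The causes of the other moves were not tested. Depth could not be recovered from the values, so the counting error of low genes such as Hspa2 and Dnajb14 is unknown.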
